A study of Mus musculus with 24 samples.

Results

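Mitochondrial ribosomal protein genes were taken as all genes whose symbol starts with Mrpl or Mrps followed by a digit and that had at least 1 probe set annotated to that gene alone. The rule found 73 of 17097 measured genes, 46 with a large-subunit symbol (Mrpl) and 27 with a small-subunit symbol (Mrps). Where a gene had several such probe sets, the one brightest on average across the 24 arrays stands for it. RefSeq lists 78 protein-coding genes with such symbols, and Mrpl22, Mrpl45, Mrpl51, Mrps18c and Mrps28 are not analysed here because no probe set of theirs names 1 gene only.

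The mitochondrial ribosome translates the few messenger RNAs of the mitochondrial genome, which in mammals encode core subunits of the respiratory chain and of the ATP synthase. Its proteins are all encoded in the nucleus, made on cytosolic ribosomes and imported. The large subunit forms peptide bonds and the small subunit reads the messenger RNA, and both must be assembled on mitochondrial ribosomal RNA. T cells enlarge their mitochondrial mass when they leave quiescence, and the kinase complex mTORC1, whose defining subunit is Raptor, is known to promote mitochondrial biogenesis.

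The arrays measured RNA of mouse naive CD4 T cells, sorted as CD4+CD62LhiCD44loCD25- from spleen and peripheral lymph nodes. The wild-type groups, labelled as C57BL/6, were taken unstimulated, after 8 h or after 24 h on plates carrying antibodies to CD3 and CD28. The Raptor-deficient groups, labelled CD4(cre)Raptor(fl/fl), were taken at the same 3 points, and in them a Cre recombinase driven by the Cd4 gene removes floxed Raptor sequence in T cells, CD8 T cells included. Each of the 6 groups held 4 samples, each labelled from 20 ng of RNA. The age of the mice, the strain behind the Raptor-deficient mice and the share of cells that had lost Raptor are not given in the sources used here. The labels do not say whether each replicate was a separate animal, and the p-values therefore rest on sample-to-sample spread that may be technical.

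Rptor, the targeted gene, measured 7.04, 7.49, 7.19 and 7.39 on the log2 scale in wild-type unstimulated samples and 5.92, 7.37, 6.55 and 6.79 in Raptor-deficient ones, so the groups overlapped before stimulation. Where the probe set lies relative to the floxed sequence is not given in the sources used here, so these values cannot show how much Raptor was lost. At 8 h the wild-type values were 7.46 to 7.57 and the Raptor-deficient values 6.27 to 6.79, and Rptor was lower by limma (log2 difference -1.01, Benjamini-Hochberg adjusted p = 0.000292). At 24 h the difference was -0.64 (adjusted p = 0.0109). Raptor-deficient unstimulated replicate 1 stood apart, with a residual SD over all genes of 0.28, against 0.222 and 0.206 in replicates 2 and 3 of that group and 0.119 to 0.172 in the other 21 arrays. Replicate 1 of both 24 h groups held Alb, a liver transcript, at 9.02 and 9.11, against 6.14 to 6.71 in the other 22 arrays. Below the median gene level of 5.51 lay none of 10 measured CD4 T cell and none of 2 CD8 T cell markers, 1 of 2 regulatory T cell, 6 of 9 B cell, 6 of 8 myeloid, 6 of 6 NK cell, 3 of 5 liver and 1 of 2 red cell markers. Levels of different probes are not comparable, so these counts do not measure purity. Values of other lineages that moved with genotype are given with the genotype results.

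Promoter sequence of 5 members is shown as examples that carry motifs of factors known to bind nuclear genes for mitochondrial proteins. Other members with large changes, Mrpl12, Mrps6, Mrpl16 and Mrps25 among them, held none of the 4 motifs in their windows. The sequences are the 120 bases before the annotated start, from RefSeq for mouse assembly GRCm38.p6, printed 5′ to 3′ on the gene's strand, with the motif in capitals. The NRF1 core (GCATGCGC) is marked, on the opposite strand, in Mrpl17 (chr7:105811088-105811207, minus strand), the gene with the largest rise at 8 h in wild-type cells. The ETS motif (CCGGAAGT), bound by the factor GABP, is marked in Mrpl3 (chr9:105053148-105053267, plus strand) and Mrps22 (chr9:98601680-98601799, minus strand). The E-box (CACGTG), bound by Myc and related factors, is marked in Mrpl20 (chr4:155802758-155802877, plus strand). Mrpl36 (chr13:73330889-73331008, plus strand) holds an E-box and, closer to its start, the YY1 motif (AAGATGGC) on the opposite strand.
Mrpl17: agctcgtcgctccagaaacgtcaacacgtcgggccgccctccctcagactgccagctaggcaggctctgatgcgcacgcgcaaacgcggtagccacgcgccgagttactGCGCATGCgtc
Mrpl3: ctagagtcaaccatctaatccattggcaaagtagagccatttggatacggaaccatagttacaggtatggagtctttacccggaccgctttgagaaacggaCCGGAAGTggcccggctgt
Mrps22: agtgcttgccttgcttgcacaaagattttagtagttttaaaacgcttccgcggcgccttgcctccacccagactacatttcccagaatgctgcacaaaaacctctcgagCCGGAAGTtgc
Mrpl20: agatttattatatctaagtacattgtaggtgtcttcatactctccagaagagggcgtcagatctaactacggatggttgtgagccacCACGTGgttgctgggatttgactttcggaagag
Mrpl36: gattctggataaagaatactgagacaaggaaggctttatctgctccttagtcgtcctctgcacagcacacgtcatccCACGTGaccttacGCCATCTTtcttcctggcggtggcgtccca

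RefSeq's table held 71 promoter windows for 65 of the 73 members, each of 300 bases from 250 before to 50 after the start. The motifs were searched on both strands, and matches of different motifs were counted separately where they overlapped. The YY1 motif was in 12 of the 71 windows (16.9%), against 3.1% of the 21263 windows of protein-coding genes. The ETS motif was in 10 windows (14.1%, against 5.1%) and the NRF1 core in 7 (9.9%, against 3.5%). The E-box was in 6 windows (8.5%), close to its 7.8% in all protein-coding windows. All 6 belonged to large-subunit genes, namely Mrpl2, Mrpl20, Mrpl36 and Mrpl37, while none of the 26 small-subunit windows held it. The windows of Mrpl2 overlap and hold the same E-box, at -131, -139 and -147 from their starts, so a single site was counted repeatedly. At least 1 of the 4 motifs was in 30 windows (42.3%, against 17.5%). In 26 windows (36.6%, against 12.3%) another gene started on the opposite strand within 1000 bases upstream, and Mrpl46 and Mrps11, a large-subunit and a small-subunit gene, start 42 bases apart in that way. The median G and C content was 59.0% in the members' windows and 56.3% in all protein-coding ones. These shares describe the windows, several of which belong to 1 gene, and were not tested.

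In wild-type cells the mitochondrial ribosomal protein genes rose together within 8 h. By limma, 64 of the 73 rose and none fell, with a median log2 difference of 0.93, a 1.91-fold change, while 18.9% of all genes rose, 20.8% fell and the median over all genes was -0.03. In the large subunit 39 of 46 and in the small subunit 25 of 27 members were higher, with a median of 0.93 in both. With the probe sets of a gene averaged, the large-subunit median was below the small-subunit one by a difference of -0.18, so the equal medians rest on the choice of probe set. A gene is called changed throughout at a Benjamini-Hochberg adjusted p under 0.05 over all 17097 genes. The values are relative within each array, so they do not give RNA per cell, and in these bulk samples fewer cells of a type and less RNA per cell cannot be told apart.

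The mean over the members of a sample was 7.49, 7.52, 7.46 and 7.37 in wild-type unstimulated cells and 8.33, 8.44, 8.50 and 8.50 at 8 h. It was 8.83, 8.87, 8.95 and 8.87 at 24 h. No sample of one time overlapped another time. In Raptor-deficient cells it was 7.59, 7.45, 7.39 and 7.45 unstimulated, 8.01, 8.04, 8.10 and 7.98 at 8 h, and 8.43, 8.46, 8.63 and 8.49 at 24 h. The genotypes overlapped before stimulation, and at 8 h and 24 h every Raptor-deficient sample lay below every wild-type sample. The difference between the mean of the large-subunit and that of the small-subunit genes stayed between -0.03 and 0.01 in all 6 groups, with SDs of 0.01 to 0.05 (n = 4 each).

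**Figure D1:**
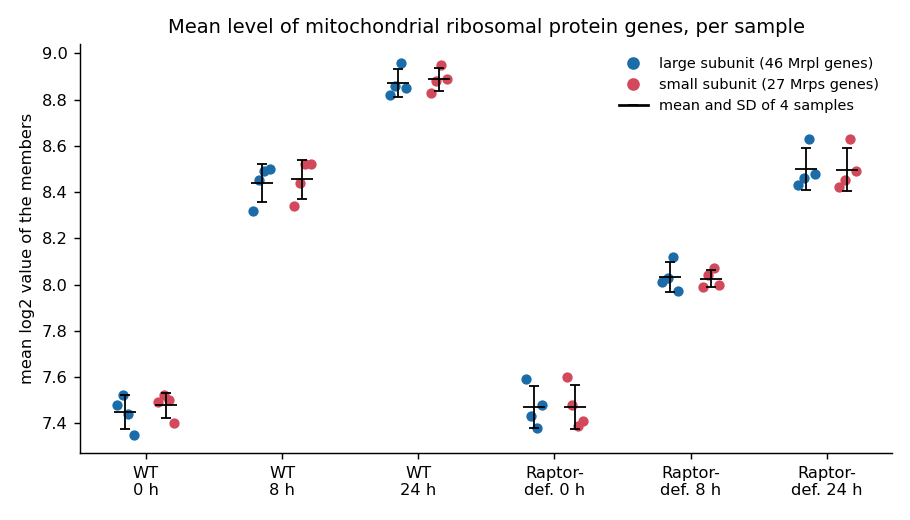
Mean log2 value of the 46 large-subunit genes (blue) and the 27 small-subunit genes (red) in each of the 24 samples, by genotype and hours of stimulation, with the group mean and SD (n = 4). The means of both subunits climb with stimulation, and at 8 h and 24 h the Raptor-deficient samples lie below the wild-type ones. Levels of different probes are not comparable, so the height of one subunit against the other is not read.

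The largest wild-type rises at 8 h belonged to Mrpl17, Mrpl12 and Mrps6. Mrpl17 lies near the exit of the peptide tunnel. It measured 7.07, 7.16, 7.19 and 7.10 before stimulation and 9.39, 9.61, 9.76 and 9.75 at 8 h, a 5.64-fold rise (log2 difference 2.50 ± 0.09 SE, adjusted p = 1.1e-17), and lay at 9.65 to 9.71 at 24 h. The promoter of Mrpl17 is the one shown above with the NRF1 core. Mrpl12, the stalk protein of the large subunit, which also binds the mitochondrial RNA polymerase, measured 7.10, 7.37, 7.05 and 7.33 unstimulated and 9.46, 9.68, 9.83 and 9.80 at 8 h. Its rise was 5.56-fold (2.48 ± 0.10, adjusted p = 6.96e-17), and it rose further by 24 h, to 9.97 to 10.19 (log2 difference from 8 h 0.34, adjusted p = 0.00993). Mrps6, of the small-subunit platform, went from 8.61, 8.59, 8.70 and 8.50 to 10.78, 10.93, 11.01 and 11.05 (2.34 ± 0.13, adjusted p = 4.27e-14). In all 3 genes every 8 h sample lay above every unstimulated sample.

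Further large-subunit genes with large rises were Mrpl15 (1.85), Mrpl16 (1.75), Mrpl20 (1.74), Mrpl19 (1.68), Mrpl11 (1.63), which helps to recruit translation factors, and Mrpl3 (1.51), close to the peptidyl transferase centre. Small-subunit genes among the largest were Mrps18b (1.88), Mrps2 (1.70) and Mrps10 (1.52). Mrps12, the counterpart of the bacterial decoding protein S12, rose by 1.22, Mrps7 by 0.89 and Mrpl44, which has a ribonuclease III fold, by 0.62, all called. Mrps18a and Mrps30, which carry small-subunit symbols but sit in the large subunit of the mammalian ribosome, rose by 1.32 and 1.05. Mrps36, now known as a component of the 2-oxoglutarate dehydrogenase complex, rose by 1.07. With Mrps18a and Mrps30 counted as large and Mrps36 left out, an assignment added after seeing the data, the 8 h medians were 0.96 for 48 large and 0.88 for 24 small members.

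Between 8 h and 24 h the wild-type cells continued in the same direction. By limma 53 members rose, against 17.4% of all genes, and 2 fell, against 11.0%, with a median of 0.41 (0.40 large, 0.41 small). The comparison shares its 8 h samples with the one before, so the values of both steps are given side by side without a relation between them. Of the 9 members not called at 8 h, Mrpl24, at the rim of the peptide exit tunnel, had wild-type means of 9.07 unstimulated, 9.29 at 8 h and 9.22 at 24 h (SD 0.10, 0.08 and 0.07, n = 4 each) and was called at neither step (0.22, adjusted p = 0.0506, and then -0.07, adjusted p = 0.636). The other 8 were Mrpl4 (0.02 by 8 h and 1.17 from 8 h to 24 h), Mrpl14 (0.08 and 1.02), Mrpl34 (0.17 and 0.91), Mrpl27 (-0.05 and 0.88), Mrpl58 (-0.05 and 0.74), Mrps31 (0.22 and 0.63), Mrpl49 (-0.20 and 0.46) and Mrps5 (0.20 and 0.41), each called higher in the second step. In a limma fit over probe sets, the other probe set of Mrpl49 was called higher by 8 h (0.41, adjusted p = 0.0344). Another probe set of Mrps5 was too (0.43, adjusted p = 0.0101), while its remaining ones gave 0.17 and 0.11, not called. The other probe set of Mrpl58 was lower by 8 h (-0.68, adjusted p = 0.00285) and again from 8 h to 24 h (-0.60, adjusted p = 0.0127). The later rise of Mrpl58 therefore rests on its brighter probe set. Mrpl4 reaches into the peptide tunnel, and Mrpl58 is a peptidyl-tRNA hydrolase that frees stalled chains. By sample, Mrpl34 measured 7.98, 8.21, 8.11 and 7.92 unstimulated, 8.07, 8.25, 8.35 and 8.22 at 8 h, and 9.11, 9.04, 9.36 and 9.02 at 24 h. The first 2 groups overlap, and all 4 samples at 24 h lie above both.

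Mrpl18, which binds ribosomal RNA near the top of the large subunit, had the largest second-step rise. It measured 8.58, 8.47, 8.62 and 8.30 unstimulated, 8.97, 8.95, 8.89 and 8.98 at 8 h, and 10.30, 10.28, 10.41 and 10.31 at 24 h (from 8 h 1.38 ± 0.08, adjusted p = 3.77e-13). Mrps16 (0.99), Mrps34 (0.98), Mrpl48 (0.88) and Mrps35 (0.82) also rose. The 2 members that fell were Mrps6 (-0.48, adjusted p = 0.00549) and Mrpl39 (-0.33, adjusted p = 0.0332). Mrps6 overlaps Slc5a3, and probe sets that name both genes were left out. The fall of Mrpl39 was lost without wild-type 8 h replicates 3 or 4 or 24 h replicates 2 or 3, and its other probe set went the other way (0.45, adjusted p = 0.0623 in a fit over probe sets). Over the whole 24 h, 70 members rose and none fell in wild-type cells, against 25.4% of all genes rising, with a median of 1.37. The 3 not called were Mrpl24 (0.15), Mrpl47 (0.18) and Mrpl49 (0.25). The other probe set of Mrpl49, of similar mean level, was called higher (1.15, adjusted p = 3.77e-07 in the limma fit over probe sets). Mrpl12 had the largest rise, 2.82 or 7.06-fold.

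**Figure D2:**
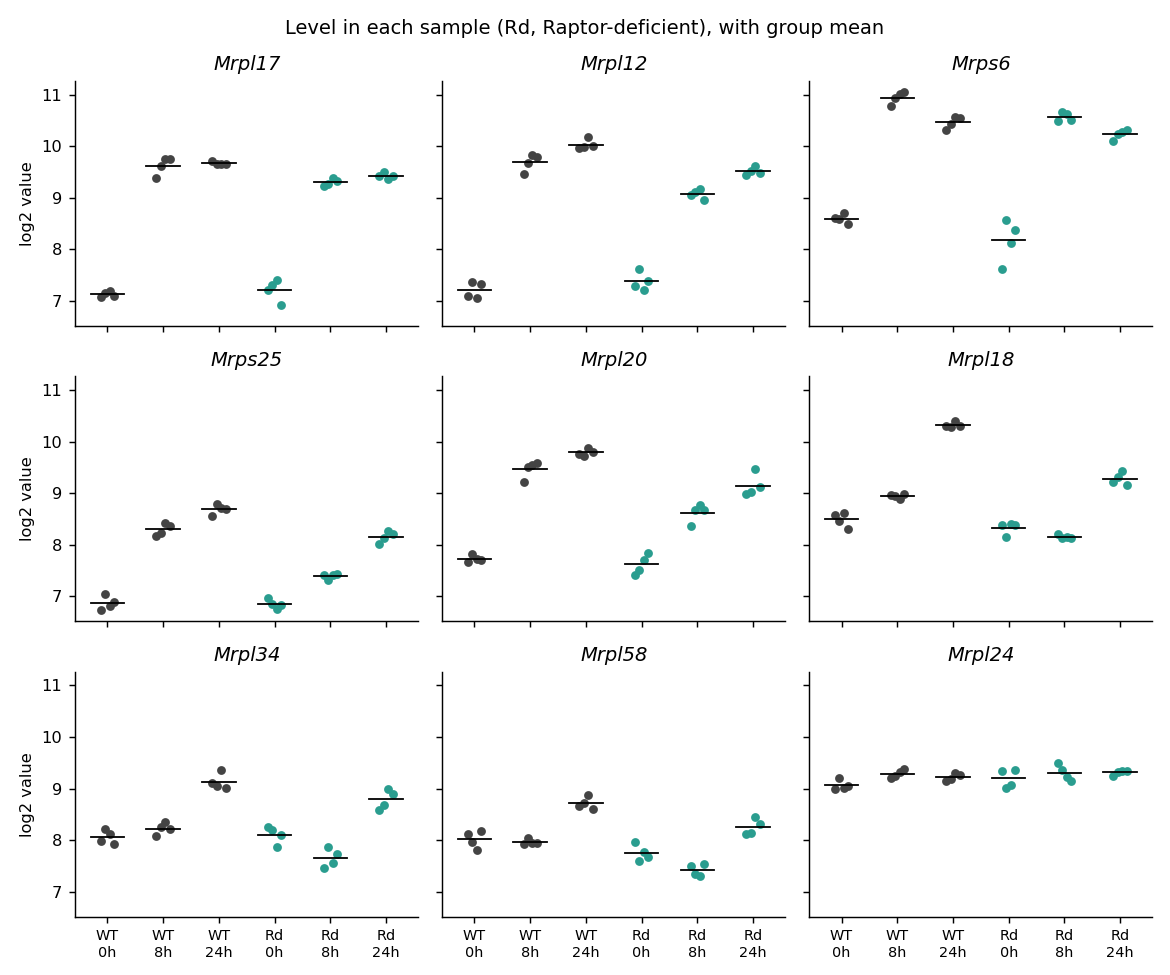
Log2 values of 9 members in all 24 samples (points, 4 a group) with group means (lines), wild type in grey and Raptor-deficient (Rd) in green. Mrpl17, Mrpl12 and Mrps6 show their steep rise by 8 h, Mrpl18, Mrpl34 and Mrpl58 are higher at 24 h than at 8 h in both genotypes, and Mrpl24 has group means between 9.07 and 9.31.

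Fewer members were called higher in Raptor-deficient cells. At 8 h 45 members rose, all of them also called in wild-type cells, against 16.0% of all genes, and 3 fell, against 16.8%, with a median of 0.51 (29 of 46 large and 16 of 27 small members rose). The fallers were Mrpl34 (-0.45, adjusted p = 0.00191), Mrpl58 (-0.34, adjusted p = 0.00829) and Mrpl49 (-0.34, adjusted p = 0.027). The call for Mrpl49 was lost without unstimulated Raptor-deficient replicates 1 or 4 or 8 h replicates 1 or 4, and its other probe set gave 0.02. The largest rises were those of Mrps6 (2.40), Mrpl17 (2.09), Mrpl12 (1.69), Mrps2 (1.52) and Mrpl19 (1.51). Mrps6 measured 7.62, 8.58, 8.12 and 8.38 unstimulated and 10.49, 10.67, 10.63 and 10.51 at 8 h, and replicate 1, the array that stood apart, was its lowest.

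From 8 h to 24 h 52 members rose in Raptor-deficient cells, against 15.2% of all genes, and 1 fell, against 7.81%, with a median of 0.47. Mrpl4 (1.24), Mrpl48 (1.18), Mrpl34 (1.14), Mrps16 (1.13) and Mrpl18 (1.12) rose most, and Mrpl39 fell (-0.62, adjusted p = 0.000195), although its other probe set gave 0.37 (adjusted p = 0.164) and the mean of both gave -0.13 (adjusted p = 0.383). Over the whole 24 h 64 members rose and none fell, against 21.6% of all genes rising, with a median of 0.97. The median was 0.95 for the large and 1.11 for the small subunit, the widest gap between the subunits among the comparisons, and large minus small ran from -0.18 to -0.07 with 1 array left out. Taken by means over the members, large minus small was -0.00 in unstimulated and 0.00 in 24 h Raptor-deficient samples. The gap is therefore seen in the medians and not in the means. Whether the subunits differ was not tested. The Raptor-deficient mean at 24 h was above the wild-type mean at 8 h in 40 members and below it in 33, with a median difference of 0.02. In time comparisons some probe sets of Mrpl33, Mrpl58, Mrps14 and Mrps25 were called in the opposite direction to others of the same gene, and in the genotype comparisons none were.

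Before stimulation 2 of the 73 genes were called lower in Raptor-deficient cells and none higher, against 1.24% of all genes lower, with a median of 0.01. At an unadjusted p under 0.05, 6 were higher and 7 lower, against 5.66% and 8.29% of all genes. Mrpl36, a small zinc-binding protein of the large subunit, measured 8.06, 8.16, 7.68 and 7.58 in wild-type and 6.78, 7.67, 7.26 and 7.27 in Raptor-deficient cells (-0.62 ± 0.14, adjusted p = 0.0169). Mrps5, near the channel by which messenger RNA enters, measured 7.97, 8.16, 8.34 and 8.26 against 7.54, 7.43, 7.92 and 8.02 (-0.46 ± 0.12, adjusted p = 0.0481). In both genes 1 Raptor-deficient value lay inside the wild-type range. Without Raptor-deficient replicate 1, which stood apart, the adjusted p was 0.0626 for Mrpl36 and 0.133 for Mrps5, and the 1 member called was then Mrps17 (-0.49, adjusted p = 0.00623, against -0.30, adjusted p = 0.304, with all arrays), which is named after its value was seen. Mrpl36 also lost its call without wild-type unstimulated replicates 1 or 2, and Mrps5 without any of 17 single arrays (adjusted p from 0.0504 up).

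After 8 h of stimulation most of the genes were lower in Raptor-deficient than in wild-type cells. By limma 49 of the 73 were lower and none higher, against 8.77% of all genes lower and 4.14% higher. The members' median was -0.42, which is 1.34-fold, and the median over all genes 0.01. The large subunit had 31 of 46 lower (median -0.44) and the small subunit 18 of 27 (median -0.41). In 57 members all 4 Raptor-deficient samples lay below all 4 wild-type samples, which 12.5% of all genes did. In none did they all lie above, and the share of all genes that did was not counted. Over all 129 one-gene probe sets of the members, 62 were lower and 1 higher. The share over all probe sets was not counted, so this count has no background beside it. The higher one was the dimmer probe set of Mrpl33 (0.45, adjusted p = 0.0249 in the limma fit over probe sets).

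Mrps25, a small-subunit protein, differed most. Its wild-type values at 8 h were 8.17, 8.23, 8.42 and 8.37 and its Raptor-deficient values 7.42, 7.32, 7.41 and 7.44, a gap with no overlap (-0.90 ± 0.08, 1.87-fold, adjusted p = 4.89e-08). Its other probe sets, of lower mean level, gave -0.32 (adjusted p = 0.244) and 0.10 (adjusted p = 0.718) in the fit over probe sets. Mrpl20, needed early in the assembly of the large subunit in bacteria and shown above with its E-box, measured 9.21, 9.50, 9.54 and 9.59 against 8.36, 8.68, 8.78 and 8.68 (-0.84 ± 0.11, adjusted p = 1.04e-05). Mrpl18 measured 8.89 to 8.98 against 8.13 to 8.21 (-0.79 ± 0.08, adjusted p = 2.33e-07). All 4 Raptor-deficient samples of Mrpl20 and of Mrpl18 lay below the lowest wild-type sample.

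Other members with large differences at 8 h were Mrpl35 (-0.74), Mrpl36 (-0.68), Mrpl16 (-0.67), Mrps14 (-0.66), Mrpl3 (-0.65), Mrpl12 (-0.62), Mrpl41 (-0.61), Mrps34 (-0.61) and Mrps15 (-0.60). When the probe sets of Mrps14 were averaged, its call was lost (adjusted p = 0.0714). Among members with known roles, Mrpl58 was lower by 0.55, Mrps12 by 0.54, Mrpl11 by 0.44 and Mrpl44 by 0.48 on the log2 scale, all called. The largest positive value was that of Mrpl39 (0.29, adjusted p = 0.104), whose other probe set gave -0.32. Mrpl24 differed by 0.02, Mrpl52 by -0.04, Mrps31 by -0.10 and Mrpl23 by -0.12, none called.

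At 24 h again 49 members were lower and none higher, against 13.1% of all genes lower and 8.35% higher. Their median was -0.41 (31 of 46 large, median -0.41, and 18 of 27 small, median -0.43). In 57 members all Raptor-deficient samples lay below all wild-type samples, which 16.5% of all genes did. In 1 they all lay above, again without a counted share over all genes. Over the 129 one-gene probe sets 68 were lower and 2 higher at 24 h, again without a share over all probe sets. A dimmer probe set of Mrps14 was among the higher ones (0.34, adjusted p = 0.038 in the limma fit over probe sets). The 8 h and 24 h comparisons share no samples, and 39 members were lower in both, against 5.40% of all genes. A further 10 were called in the first only, 10 in the second only and 14 in neither. Those 14 were Mrpl10, Mrpl23, Mrpl24, Mrpl33, Mrpl39, Mrpl43, Mrpl47, Mrpl52, Mrps2, Mrps6, Mrps18b, Mrps26, Mrps31 and Mrps33. Whether the size of the difference changed between 8 h and 24 h was tested by the interaction given below.

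Mrpl18 had the largest difference at 24 h. It measured 10.30, 10.28, 10.41 and 10.31 in wild-type and 9.22, 9.32, 9.43 and 9.16 in Raptor-deficient cells (-1.04 ± 0.08, 2.06-fold, adjusted p = 2.25e-10). Mrpl40 measured 7.97, 8.20, 8.22 and 7.99 against 7.19, 7.41, 7.61 and 7.32 (-0.71 ± 0.10, adjusted p = 5.17e-06). Mrps34 measured 8.38, 8.49, 8.80 and 8.56 against 7.94, 7.80, 7.95 and 7.77 (-0.70 ± 0.09, adjusted p = 2.89e-06). None of these 3 genes had overlapping groups. Mrpl14 (-0.69), Mrps22 (-0.65), Mrpl20 (-0.65), Mrpl35 (-0.64), Mrps18a (-0.62), Mrpl46 (-0.61), Mrpl16 (-0.60) and Mrpl28 (-0.60) followed, all called. Mrpl46 and Mrps11, the pair with the shared upstream region, differed by -0.50 and -0.42 at 8 h and by -0.61 and -0.50 at 24 h. Of 20 measured genes that share such a start region with a member, 3 were higher and 3 lower at 8 h (median -0.02). Over all genes 4.14% were higher and 8.77% lower at 8 h. At 24 h 4 of the 20 were higher and 2 lower (median 0.01), against 8.35% and 13.1% of all genes. Among the members the highest positive value at 24 h was 0.23, that of Mrpl52 (adjusted p = 0.119), whose wild-type samples were 11.48 to 11.61 and Raptor-deficient samples 11.62 to 11.99.

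**Figure D3:**
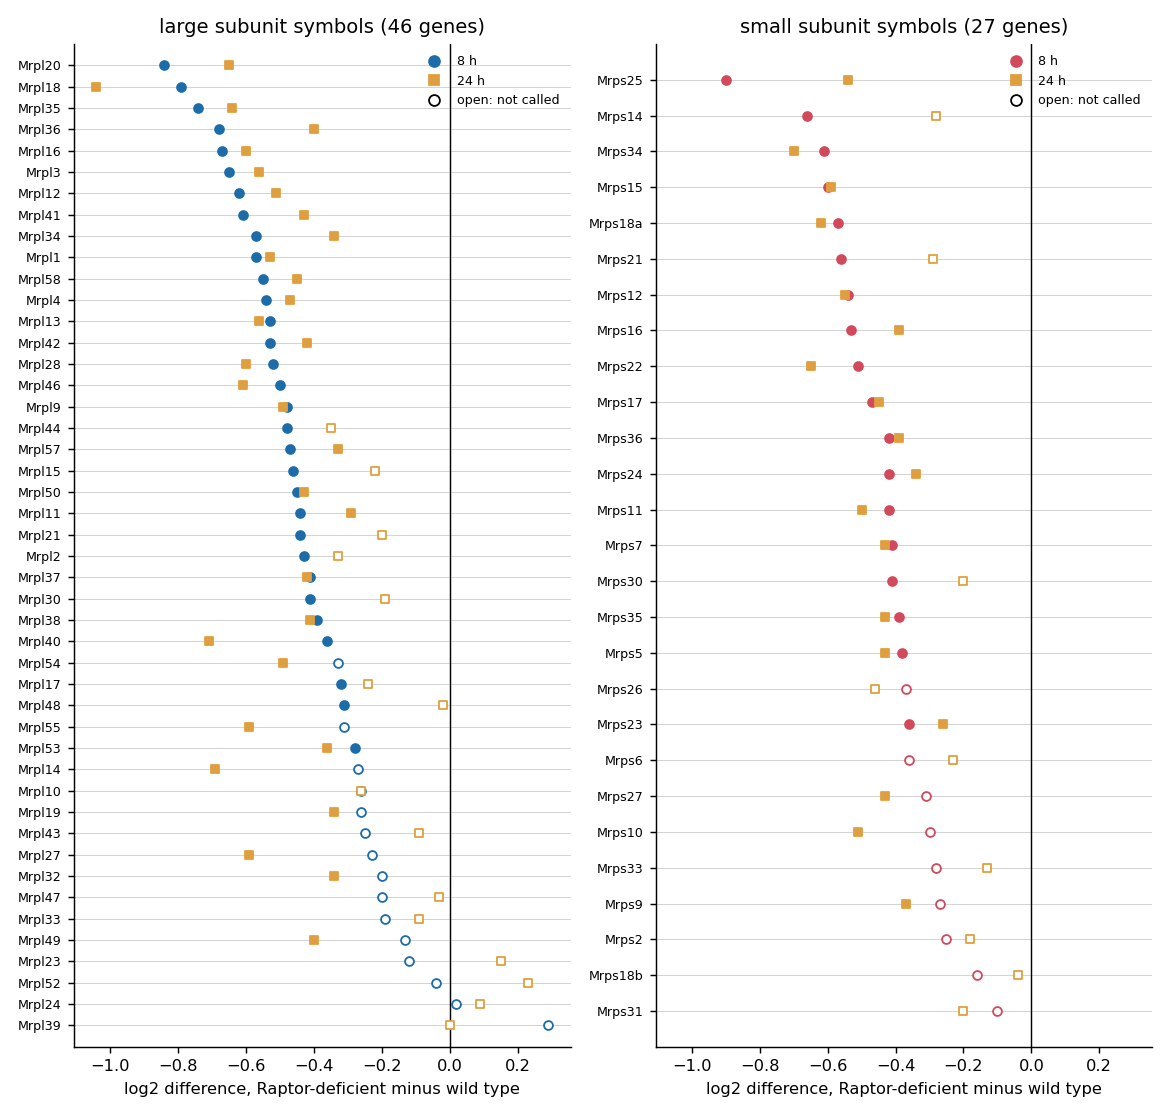
Log2 difference of Raptor-deficient minus wild-type cells for each member at 8 h (circles) and 24 h (squares), large-subunit symbols on the left and small-subunit symbols on the right, ordered by the 8 h value, filled where called at an adjusted p under 0.05. At 8 h 71 of 73 points and at 24 h 69 of 73 lie below 0, and no filled point lies above 0.

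Markers of other lineages differed between the genotypes too. Before stimulation the log2 of the summed level of 6 NK cell markers was 7.57 to 7.87 in wild-type and 6.86 to 6.97 in Raptor-deficient samples, with 1 lower, and that of 8 myeloid markers 7.81 to 7.92 against 8.03 to 8.38, with 1 higher. Of the CD4 T cell markers 3 were lower (13.30 to 13.36 against 13.21 to 13.42). The unstimulated B cell sum was 8.34 to 8.77 against 8.67 to 9.28, with none called. Of 2 regulatory T cell markers 1 was higher before stimulation (6.77 to 7.62 against 7.45 to 7.72). At 24 h the NK cell sum was 6.48 to 6.70 against 6.76 to 7.06, with 1 higher. Of 9 measured B cell markers 1 was higher in Raptor-deficient cells at 8 h and 3 at 24 h, and their sum was 8.34 to 8.72 in wild-type and 8.82 to 9.63 in Raptor-deficient samples at 24 h. For 8 myeloid markers it was 7.74 to 7.86 against 8.16 to 8.40 at 8 h with 2 higher, and for 2 regulatory T cell markers 7.58 to 8.06 against 8.43 to 8.80 at 24 h with both higher. For 10 CD4 T cell markers it was 13.41 to 13.55 against 13.14 to 13.25 at 8 h with 3 lower, and 13.63 to 13.74 against 13.64 to 13.75 at 24 h with 1 lower. At 8 h the B cell sum was 8.48 to 8.68 in wild-type and 8.82 to 9.42 in Raptor-deficient samples. For 2 CD8 T cell markers it was 7.14 to 7.36 against 6.63 to 7.02 at 8 h, with none called. The regulatory T cell sum was 7.28 to 7.59 against 7.64 to 7.85 at 8 h, with 1 higher. For 2 red cell markers it was 6.84 to 7.25 against 7.30 to 8.78 at 24 h, with none called. The myeloid sum was 7.45 to 7.68 against 7.65 to 7.93 at 24 h, with 1 higher. Over all genes 1.24% were lower before stimulation, 8.77% lower and 4.14% higher at 8 h, and 13.1% lower and 8.35% higher at 24 h. The part of these differences in the results for the mitochondrial ribosomal proteins was not tested.

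The response itself differed between the genotypes in the first 8 h. The interaction, the Raptor-deficient change minus the wild-type change, was called negative in 26 members and positive in none, against 4.36% of all genes called negative, with a median of -0.43. The large subunit had 17 of 46 called (median -0.44) and the small subunit 9 of 27 (median -0.42). This count moved with single arrays: it was 13 without wild-type unstimulated replicate 4. With one wild-type 8 h array left out it was 15 (replicate 3) or 16 (replicate 4), and with one Raptor-deficient 8 h array left out 16 (replicate 4) or 17 (replicate 2). It was 9 when only the 4 groups compared entered the fit, 14 after cyclic loess and 38 with dim genes removed, and the median stayed between -0.46 and -0.40 with any 1 array left out.

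Mrps25 had the largest interaction. It rose by 1.42 in wild-type and by 0.54 in Raptor-deficient cells, from 6.73 to 7.05 and 6.75 to 6.96 in the unstimulated samples, which overlap (interaction -0.88 ± 0.12, adjusted p = 7.24e-05). When its probe sets were averaged the interaction was -0.33 (adjusted p = 0.0727). Mrpl12 rose by 2.48 and 1.69 (-0.78, adjusted p = 0.00118), Mrpl16 by 1.75 and 1.07 (-0.68, adjusted p = 0.00203), Mrpl20 by 1.74 and 1.01 (-0.73, adjusted p = 0.00608) and Mrpl3 by 1.51 and 0.77 (-0.74, adjusted p = 0.0133). Mrpl18 rose by 0.45 in wild-type cells, and its Raptor-deficient value was -0.17 (adjusted p = 0.118; interaction -0.62, adjusted p = 0.00149). For Mrps22, Mrps18a and Mrpl28 the array that stood apart was the highest of its group, at 8.10, 8.07 and 8.33, and without it the interaction was -0.52 (adjusted p = 0.026), -0.58 (adjusted p = 0.0406) and -0.52 (adjusted p = 0.0154), against -0.78, -0.81 and -0.81 with it. Without it the interaction of Mrpl35, -0.71 with all arrays, was -0.53 (adjusted p = 0.0829).

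Across the members the Raptor-deficient response at 8 h was 0.66 of the wild-type response (slope through the origin, SD 0.04 over the 4 stimulated Raptor-deficient samples), 0.66 for the large and 0.66 for the small subunit. At 24 h against unstimulated the slope was 0.74 (SD 0.06). All slopes of a time used the same means of the wild-type groups and of unstimulated Raptor-deficient cells. These SDs therefore leave out the spread of those groups and do not give the precision of the ratio. The Raptor-deficient change was the smaller in 70 of 73 members at 8 h and in 66 at 24 h. The 3 exceptions at 8 h were Mrpl39, Mrps5 and Mrps6, with interactions of 0.05, 0.08 and 0.06, none called. From 8 h to 24 h no member's change was called different between the genotypes by limma, while 4.53% of all genes were called in either direction, and the median difference was 0.06. At an unadjusted p under 0.05, 3 members had positive and 4 negative values, against 6.46% and 7.83% of all genes. The largest values were those of Mrpl14 (-0.42, adjusted p = 0.164) and Mrps14 (0.38, adjusted p = 0.198).

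**Figure D4:**
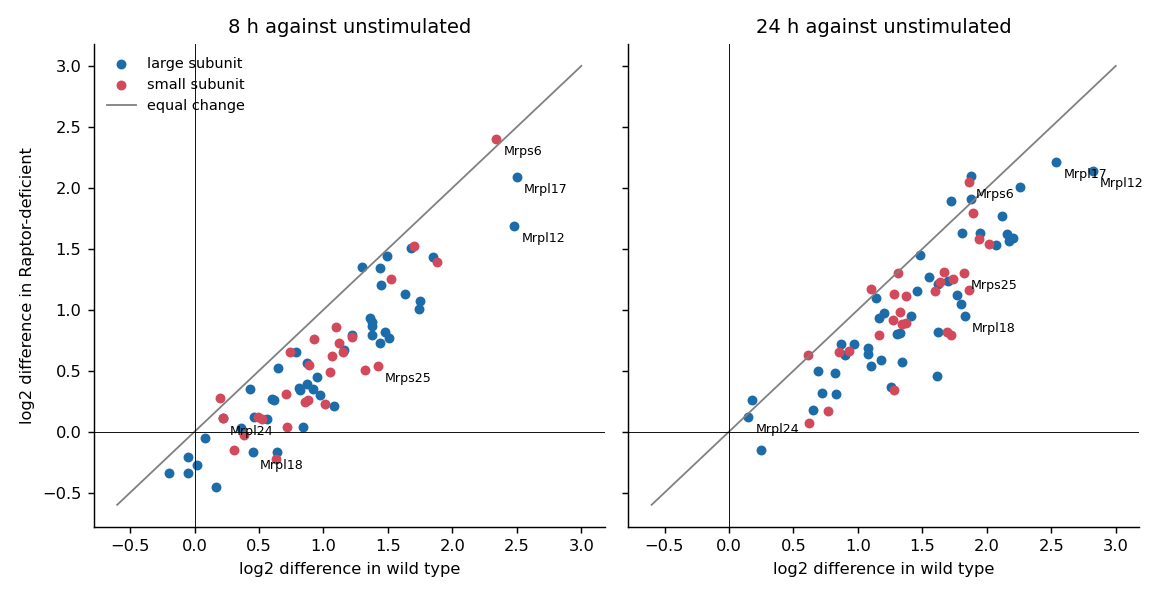
Log2 change of each member from unstimulated cells in wild type (horizontal) and Raptor-deficient cells (vertical) at 8 h and 24 h, large subunit in blue and small subunit in red, with a line of equal change. At 8 h 70 of 73 points and at 24 h 66 of 73 lie below the line.

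Genes around the mitochondrial ribosome were taken from lists written beside the members. Over all genes 8.77% were lower and 4.14% higher in Raptor-deficient cells at 8 h, and 13.1% lower and 8.35% higher at 24 h. The genotype counts below are read against these shares. Of 4 measured mitochondrial ribosome proteins with other names, Chchd1 and Gadd45gip1 were lower in Raptor-deficient cells at 8 h (-0.55 and -0.79) and at 24 h (-0.41 and -0.61). Of 11 translation factors 3 were lower at 8 h and 4 at 24 h, and none higher. These included Gfm1, an elongation factor that moves the ribosome along (-0.64 and -1.05), and Tufm, which brings aminoacyl-tRNA (-0.55 and -0.50). Of 23 assembly and ribosomal RNA modification genes 4 were lower and 1 higher at 8 h, and 6 lower and 3 higher at 24 h. Fastkd2, an RNA-binding assembly factor, was lower (-0.56 and -0.67), and Nsun4, a methyltransferase for ribosomal RNA, was higher (0.50 and 0.71).

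Of 18 mitochondrial tRNA synthetases and related enzymes 1 was lower at 8 h (5.56%) and 5 at 24 h (27.8%), and of 15 genes for mitochondrial transcription and RNA processing 4 were lower at each time, with 2 and 1 higher. Among nuclear-encoded respiratory chain and ATP synthase subunits, 63 of 71 rose in wild-type cells by 8 h (median 0.64), and in Raptor-deficient cells 60 were lower at 8 h (median -0.48) and 32 at 24 h (median -0.25), with none higher. Of the cytosolic ribosomal proteins 16 of 69 rose (23.2%) and 7 fell (10.1%) in wild-type cells by 8 h, with a median of 0.00. Over all genes 18.9% rose and 20.8% fell in wild-type cells by 8 h. Of the same 69 genes 8 were higher and 3 lower in Raptor-deficient cells at 8 h, with a median of 0.09. Myc, whose protein binds E-boxes, had a difference of 0.14 at 8 h (adjusted p = 0.431) and of 0.51 at 24 h (adjusted p = 0.000406). The lists were not tested against each other or against the members.

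**Figure D5:**
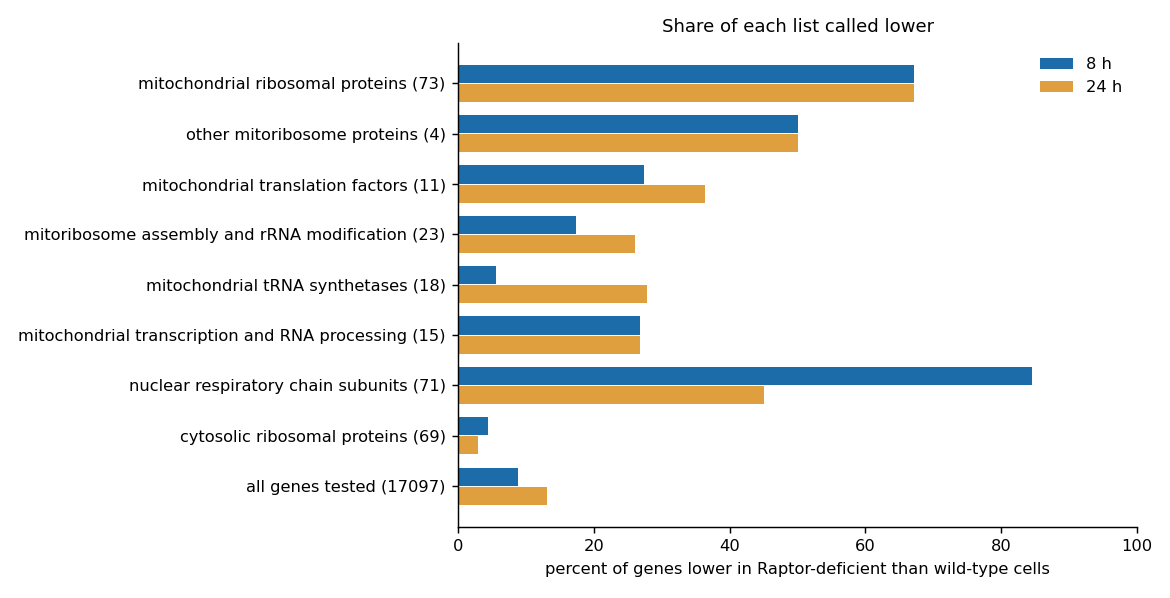
Percent of the genes in each list, and of all 17097 genes, called lower in Raptor-deficient than in wild-type cells at 8 h (blue) and 24 h (yellow), with the number of measured genes in brackets. The share is 67.1% for the mitochondrial ribosomal proteins at both times and 8.77% and 13.1% for all genes.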

How the data were processed

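RNA was measured on Affymetrix arrays, 24 in all. The values deposited by the authors are log2 intensities, per the submitters' processing notes made with RMA and Partek 6.5; other settings are not given in the sources used here. They ran from 1.64 to 13.8, with array medians of 5.15 to 5.29. Of 45141 probe sets 28898 named 1 gene, and 6 probe sets that name a member and another gene were left out. The brightest probe set on average stood for a gene, with no level filter. All 17097 genes entered one fit of the 6 groups with limma 3.58.1 in R 4.3.3 (18 residual degrees of freedom, two-sided, Benjamini-Hochberg adjustment within a comparison). The fitting code was tested on simulated data, and no result given here rests on that run. The number of arrays limits the precision.

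The members, lists and tests were chosen with earlier results of these data known. Named are up to 10 largest rises and falls per comparison, members not called or going against the rest, members with set roles, and up to 4 genes per other list. Alternatives changed the probe set rule, scaling, filter, weights, samples, blocks and prior.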

Additional observations from a re-analysis of the deposited data

Results flagged for a closer look

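In 22 members and their mean, 138 groups of 4 samples were checked for a sample far from the others by Dixon's criterion, and 10 stood out. Chance alone flags about 1 in 20 groups. Of the 10, Mrps22 in Raptor-deficient unstimulated replicate 1 (8.10, others 6.97 to 7.11) lies in the array that stood apart over all genes. Raptor-deficient 24 h replicate 3 was the highest in Mrpl16 (9.27, others up to 9.05), Mrpl3 (9.03, others 8.77 to 8.80) and Mrpl46 (7.74, others 7.52 to 7.54). Wild-type 24 h replicate 3 was the highest in Mrpl12 (10.19, the lowest of the others 9.97) and Mrpl35 (9.49, others 9.13 to 9.18). Low samples were found in Mrpl19 (wild-type 8 h replicate 1, 7.66, others 7.91 to 7.96), Mrps18b (wild-type 24 h replicate 2, 9.26, others 9.32 to 9.33), Mrpl18 (Raptor-deficient unstimulated replicate 2, 8.15, others 8.38 to 8.41) and Mrpl3 (Raptor-deficient 8 h replicate 2, 8.29, others 8.55 to 8.59).

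The limma interaction between genotype and the first 8 h was called in 26 members, and the 10 called members with the largest values are listed here, all with a smaller change in Raptor-deficient cells. These were Mrps25 (-0.88, adjusted p = 7.24e-05), Mrpl12 (-0.78, 0.00118), Mrpl16 (-0.68, 0.00203), Mrpl1 (-0.80, 0.00264), Mrpl20 (-0.73, 0.00608), Mrpl3 (-0.74, 0.0133), Mrps18a (-0.81, 0.0327), Mrpl28 (-0.81, 0.038), Mrps22 (-0.78, 0.0387) and Mrpl35 (-0.71, 0.0451). The call for Mrps18a was lost (adjusted p 0.0544 to 0.0786) on leaving out unstimulated wild-type arrays 1 or 4, or at 8 h wild-type arrays 2, 3 or 4 or Raptor-deficient arrays 1 or 2. That for Mrps22 was lost (0.0532 to 0.0908) on leaving out unstimulated wild-type arrays 1, 2 or 4, or at 8 h wild-type arrays 2, 3 or 4 or Raptor-deficient arrays 1, 2 or 3. That for Mrpl28 was lost (0.052 to 0.0813) on leaving out unstimulated wild-type arrays 2, 3 or 4, or at 8 h any wild-type array or Raptor-deficient arrays 1, 3 or 4. That for Mrpl35 was lost with any of 18 of the 24 arrays left out (0.0502 to 0.101).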

How the results depend on the processing

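Over the alternatives run, 85 of 98 named results kept their direction and call and 13 lost the call under at least 1. Mrpl39 from 8 h to 24 h in wild type reversed, to 0.06 (adjusted p = 0.692), with the mean of all probe sets. That mean gave medians of 0.76 (wild type, 8 h), 1.18 (wild type, 24 h from unstimulated), 0.42, 0.33 and 0.82 (Raptor-deficient, by 8 h, 8 h to 24 h, and 24 h from unstimulated) and -0.33 (interaction to 8 h), and large minus small medians of -0.18, -0.23, -0.09, 0.10 (genotypes at 8 h) and 0.12 (interaction). Cyclic loess gave medians of 1.28 (wild type, 24 h) and 0.37 and 0.85 (Raptor-deficient, later step and 24 h). Between the genotypes it called 36 members at 8 h (median -0.35) and 42 at 24 h (median -0.37). Without the 3 arrays with odd profiles or Alb, the Raptor-deficient 24 h median was 1.09 and large minus small at 8 h 0.07. By place in the ribosome large minus small was 0.08 at 8 h in both genotypes, and array weights gave -0.25 at 24 h in Raptor-deficient cells. Before stimulation 1 member differed with the mean of probe sets, centred arrays, loess, weights or those arrays left out, and 0 with only the 2 groups fitted. The interaction count to 8 h was 14 with loess and 9 with only its groups, and from 8 h to 24 h it was 1 with the mean of probe sets, weights or only its groups. The cause of these moves was not tested.

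With 1 array left out, counts ran from 62 to 66 (wild type, 8 h), 44 to 53 (Raptor-deficient, 8 h), 0 to 4 (genotypes, unstimulated; 0 without wild-type replicate 2, 4 without Raptor-deficient replicate 3), 36 to 51 (8 h), 35 to 54 (24 h), 13 to 35 (interaction to 8 h) and 0 to 1 (8 h to 24 h; 1 without Raptor-deficient 24 h replicate 3). Medians ran from 0.92 to 1.06 for Raptor-deficient 24 h, and large minus small from -0.07 to 0.06 (wild type, 8 h), -0.06 to 0.07 and -0.18 to -0.07 (Raptor-deficient, 8 h and 24 h), 0 to 0.09 (unstimulated), -0.04 to 0.04 (interaction to 8 h) and 0.02 to 0.09 (later).

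Not every pair of same-numbered samples correlated over 0.1, so replicate numbers were not taken to pair the samples. Correlations ran from -0.10 to 0.36 and were over 0.1 in 16 of 60 pairs. In 34 of 60 the best match among the 4 samples of the other group had the same number. That is a hint of pairing from the data, and the low correlations do not exclude it. With a replicate block 47 members were lower at 8 h, 49 at 24 h and 29 in the interaction, and among named results only Mrpl35 lost its interaction call (adjusted p = 0.0549).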
